A study of Homo sapiens with 6 samples.

Results

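The transporters described here are genes of 7 solute carrier families that move amino acids and related compounds across membranes. They were chosen by symbol alone, as SLC1A, SLC3A, SLC6A, SLC7A, SLC36A, SLC38A or SLC43A followed by a number. A light chain symbol of SLC7A that has this form was left out by the rule and is not reported here. In all, 51 of the 24432 symbols in the files met the rule. Chosen were 7 genes of SLC1A, 2 of SLC3A, 16 of SLC6A, 9 of SLC7A, 4 of SLC36A, 10 of SLC38A and 3 of SLC43A. A further 5 symbols with these beginnings fell outside the rule, among them the antisense gene SLC38A2-AS1 and SLC7A6OS, which shares only its place with SLC7A6. The name amino acid transporter does not suit every gene chosen: SLC6A2, SLC6A3 and SLC6A4 carry monoamines, SLC6A8 carries creatine and SLC6A12 carries betaine and GABA.

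Cells take up amino acids through carriers that differ in substrate and in driving force. Sodium-coupled carriers such as SLC38A2 concentrate small neutral amino acids inside the cell. Exchangers such as SLC1A5 and the SLC7 light chains swap 1 amino acid for another, and the light chains reach the plasma membrane joined to a glycoprotein heavy chain, SLC3A2 or SLC3A1. In liver, carriers of glutamine, arginine and branched-chain amino acids feed the urea cycle, glutamine metabolism and the mTORC1 kinase, which senses amino acids at the lysosome.

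RNA was sequenced from 6 libraries of the human hepatocellular carcinoma line PLC/PRF/5, an established cell line. The 3 sensitive libraries came from wild-type cells labelled as control. The 3 resistant libraries came from cells labelled lenvatinib resistant and treated with lenvatinib, an inhibitor of receptor kinases, those of VEGF and FGF among them. All cells were grown in medium with 10% serum. By the labels the drug began at 20 µmol/L and ended at 40 mmol/L, raised by 0.5 mmol/L at a time, and these units do not match each other. Drug exposure and resistance cannot be told apart in this design, and the labels name neither separate cultures for the replicates nor more than 1 resistant line. The p-values therefore measure the spread between these libraries, which may be technical.

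Levels are given in FPKM, read or fragment counts divided by transcript length and library size. FPKM summed to 410491.6 to 475088.1 per sensitive and 366048.4 to 377923.0 per resistant library. The most frequent ratios of low values between libraries, sought within a preset range, put the 6 depths within 3.46% of each other. Sensitive library 3 stood apart from the other sensitive libraries, with Pearson's r of 0.9515 and 0.9643 across tested genes against 0.9947 between sensitive libraries 1 and 2. The gap between the groups was wider, with r of 0.6796 to 0.7064 between a sensitive and a resistant library. Of 14 hepatocyte markers, 13 reached 1 FPKM in every sensitive library and 4 in every resistant library. Their summed level was 4686 to 4969 FPKM in the sensitive libraries and 16.3 to 41.3 FPKM in the resistant ones, and TTR was listed at 0 in all 3 resistant libraries. The resistant libraries thus lacked most of the transcripts that define the labelled cell type. Summed fibroblast markers (5 genes) were at most 1.76 FPKM and summed endothelial markers (4 genes) at most 0.295 FPKM in every library. Of the 5 cholangiocyte markers, KRT7 was at 0.498 ± 0.408 FPKM in sensitive and 106 ± 8.64 FPKM in resistant cells (mean ± SD, n = 3), and SOX9 at 3.24 ± 1.29 and 11.4 ± 0.379 FPKM. EPCAM went the other way, from 27.8 ± 2.15 to 11.2 ± 0.490 FPKM, and KRT19 and CFTR stayed below 0.15 FPKM in every library. The 3 leukocyte markers in the files summed to 249.5 to 267.6 FPKM in the sensitive and 2.76 to 5.41 FPKM in the resistant libraries, through LYZ (242 ± 6.24 and 1.02 ± 1.08 FPKM) and CD68 (14.1 ± 3.53 and 3.00 ± 0.664 FPKM), while PTPRC was listed at 0 in every library. What these marker shifts have to do with the transporter values was not tested.

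The largest transporter transcripts rose together in the resistant cells, while several members of the same families fell to near 0. Of the 51 genes, 22 reached 1 FPKM in at least 3 libraries and were tested, with 12 called higher and 8 called lower in resistant cells (limma, threshold 0.05 after Benjamini-Hochberg adjustment across the 11694 genes tested). That is 90.9% of those tested, beside 67.7% of all tested genes. The share called higher was 54.5%, beside 35.2% of all tested genes, and the share called lower was 36.4%, beside 32.5%. A change of at least 2-fold on the log2(FPKM + 1) scale was called for 16 of the 22, or 72.7%, beside 38.2% of all tested genes. The 2 groups did not overlap for 20 of the 22 genes, beside 74.4% of all tested genes. SLC38A3, SLC7A2, SLC7A7 and SLC7A8 passed this filter by their sensitive libraries only, which fixed their direction. Among the 18 that passed through both groups, 12 were higher, 4 lower and 2 not called. The matching shares over all genes that passed through both groups were not computed, so these counts have no comparison. The median difference was 0.89 over the 22 genes and 0.08 over all tested genes, on the log2(FPKM + 1) scale used for every difference below. Fewer cells that express a gene and less RNA per cell cannot be told apart in bulk samples.

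**Figure D1:**
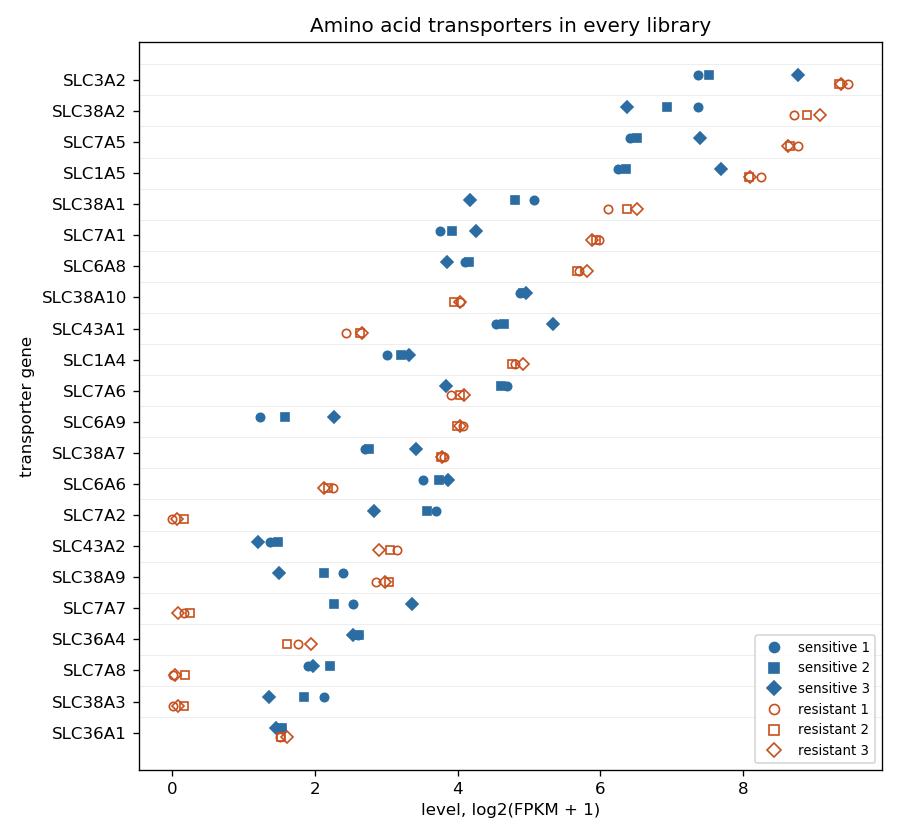
Level of each of the 22 tested transporters in every library, as log2(FPKM + 1), with filled blue symbols for the 3 sensitive and open orange symbols for the 3 resistant libraries. The 4 highest transcripts, SLC3A2, SLC38A2, SLC7A5 and SLC1A5, lie further right in every resistant library, and SLC7A2, SLC7A7, SLC7A8 and SLC38A3 lie near 0 there.

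Summed over the 22 genes, the level was 686, 672 and 1087 FPKM in sensitive libraries 1, 2 and 3 and 2164, 2106 and 2191 FPKM in resistant libraries 1, 2 and 3. SLC3A2, SLC38A2, SLC7A5 and SLC1A5 were the 4 highest in each library, in differing order. They held 70.8% to 81.9% of that sum in the sensitive and 85.4% to 86.4% in the resistant libraries. The transcripts that were already the most abundant thus made up more of the total in resistant cells.

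SLC3A2, the heavy chain also called 4F2hc or CD98, was the highest transporter transcript in each library except sensitive library 1. It stood at 165, 183 and 435 FPKM in sensitive libraries 1, 2 and 3 and at 712, 653 and 662 FPKM in resistant libraries 1, 2 and 3. The groups did not overlap, but sensitive library 3 lay far above the other sensitive libraries. SLC3A2 rose by 1.51 (SE 0.351, limma adjusted p = 0.00745), from 261 ± 151 to 676 ± 32.0 FPKM. Without sensitive library 3 the rise was 1.95. SLC3A1, the other heavy chain, which serves kidney and gut cystine uptake, was below 0.18 FPKM in every library.

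SLC7A5, or LAT1, is the light chain that exchanges large neutral amino acids such as leucine. Its level was 84.5, 90.5 and 167 FPKM in the sensitive libraries and 435, 404 and 395 FPKM in the resistant ones. All resistant values lay above all sensitive values, and sensitive library 3 was again the nearest to them. SLC7A5 rose by 1.91 (SE 0.255, limma adjusted p = 0.000527).

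The other light chains reported here did not follow it. SLC7A8, or LAT2, a carrier with a broader range of neutral substrates, stood at 2.74, 3.61 and 2.93 FPKM in the sensitive libraries but at 0.00548, 0.125 and 0.0217 FPKM across the resistant ones (difference -1.96, limma adjusted p = 7.88e-06). SLC7A7, or y+LAT1, which exports cationic amino acids in exchange for neutral ones, stood at 4.77, 3.82 and 9.28 FPKM against 0.119, 0.183 and 0.0538 FPKM (difference -2.56, limma adjusted p = 0.000163). Both genes were near 0 in each resistant library. SLC7A6, or y+LAT2, with a similar exchange activity, was at 24.8, 23.4 and 13.2 FPKM against 14.0, 15.4 and 16.1 FPKM, and did not pass the test (difference -0.36, SE 0.234, limma adjusted p = 0.205). Its groups overlapped through sensitive library 3 alone. Without that library SLC7A6 passed as lower (difference -0.64, limma adjusted p = 0.00018), in a range of adjusted p from 0.00018 to 1 over all alternatives. The fit without that library called 80.7% of all tested genes, beside 67.7% with it. SLC7A6OS, which overlaps SLC7A6 in RefSeq, went the other way, from 4.25 ± 1.01 to 8.56 ± 0.746 FPKM (difference 0.88, limma adjusted p = 0.00319), and since the strand setting of the counting is not given in the sources used here, reads of the 2 genes may have been shared.

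SLC7A5 therefore made up more of the transcripts of the tested light chains in resistant cells. Over SLC7A5, SLC7A6, SLC7A7 and SLC7A8 its share was 72.3%, 74.6% and 86.8% in sensitive libraries 1, 2 and 3 and 96.9%, 96.3% and 96.1% in resistant libraries 1, 2 and 3. The heavy chain stayed above SLC7A5, the most abundant light chain reported here, throughout. The ratio of SLC3A2 to SLC7A5 was 1.95, 2.02 and 2.60 in the sensitive and 1.64, 1.62 and 1.68 in the resistant libraries, so it was lower in each resistant library. The light chains SLC7A9 and SLC7A10 were below 0.25 FPKM in every library.

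**Figure D2:**
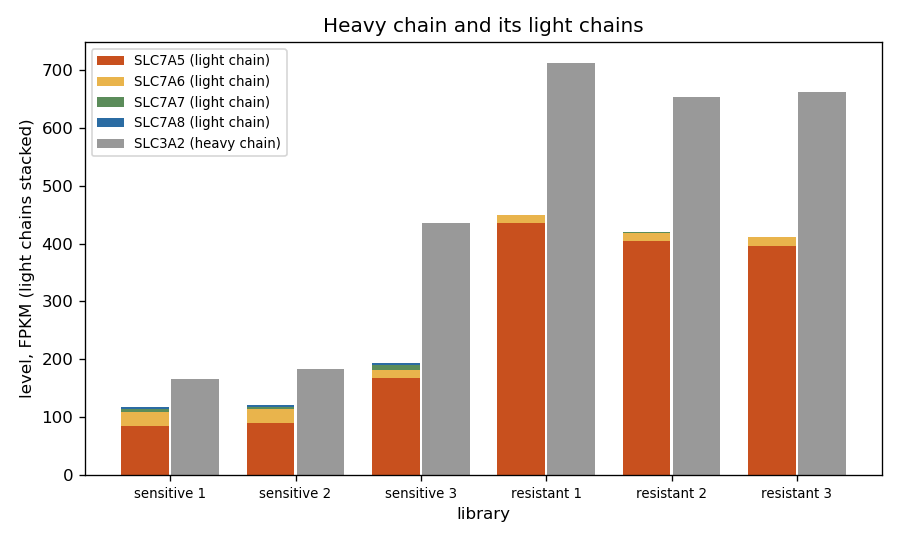
Levels in FPKM of 4 light chains (stacked bars) and of the heavy chain SLC3A2 (grey bars) in each of the 6 libraries. SLC7A5 takes 72.3% to 86.8% of the light chain bar in the sensitive and 96.1% to 96.9% in the resistant libraries, and sensitive library 3 has the highest SLC3A2 bar of the sensitive libraries.

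The small neutral amino acid exchangers of the SLC1 family both rose. SLC1A5, or ASCT2, which takes up glutamine, stood at 74.8, 80.9 and 206 FPKM in the sensitive libraries but at 304, 271 and 274 FPKM across the resistant ones. As with SLC3A2, sensitive library 3 lay far above the other sensitive libraries and below each resistant library. SLC1A5 rose by 1.38 (SE 0.369, limma adjusted p = 0.0137), by 1.85 without sensitive library 3, and its call ended without resistant library 1 (difference 1.33, limma adjusted p = 0.0501, in a range of 1.71e-07 to 0.0872 over all alternatives). SLC1A4, or ASCT1, an exchanger of serine and alanine, was at 7.04, 8.20 and 8.98 FPKM against 27.0, 26.2 and 29.2 FPKM and rose by 1.66 (SE 0.122, limma adjusted p = 2.82e-05). Its groups were narrow and well apart.

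The glutamate carriers of the same family were hardly present. SLC1A1, SLC1A2, SLC1A3, SLC1A6 and SLC1A7 stayed below 1 FPKM in every library and were not tested. SLC1A3 was the highest of them, at 0.787, 0.831 and 0.279 FPKM in the sensitive libraries but at 0, 0.0211 and 0 FPKM across the resistant ones.

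The carriers of arginine and lysine moved in opposite directions. SLC7A1, or CAT1, the widely expressed cationic carrier, went from 12.5, 14.1 and 18.1 FPKM in the sensitive libraries to 62.2, 60.5 and 57.9 FPKM in the resistant ones (difference 1.96, SE 0.146, limma adjusted p = 2.93e-05). SLC7A2, or CAT2, the cationic carrier typical of liver, went from 11.9, 10.9 and 6.10 FPKM to 0, 0.116 and 0.0437 FPKM (difference -3.29, limma adjusted p = 2.16e-05). SLC7A2 showed the largest difference among the 22 genes. The share of SLC7A1 in the sum of the 2 genes was 51.2%, 56.3% and 74.8% in the sensitive libraries and at least 99.8% in each resistant library. SLC7A3, a further cationic carrier, was below 0.06 FPKM throughout.

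Of 6 tested SLC38 genes, which carry glutamine and other neutral amino acids, 4 rose and 2 fell. That is 66.7% higher and 33.3% lower, beside 35.2% and 32.5% of all tested genes. SLC38A2, or SNAT2, the carrier that cells induce on amino acid shortage, stood at 165, 121 and 82.1 FPKM in the sensitive libraries but at 418, 475 and 540 FPKM across the resistant ones (difference 2.00, SE 0.251, limma adjusted p = 0.000389). SLC38A1, or SNAT1, its neighbour on chromosome 12 and another importer of glutamine, stood at 32.7, 27.0 and 17.1 FPKM against 68.1, 81.9 and 90.7 FPKM (difference 1.65, SE 0.240, limma adjusted p = 0.000817). In contrast to SLC3A2, SLC7A5 and SLC1A5, both were lowest in sensitive library 3. The ratio of SLC38A2 to SLC38A1 was 4.49 to 5.06 in the sensitive and 5.80 to 6.15 in the resistant libraries, with no overlap. SLC38A4, the liver carrier next to SLC38A2 on chromosome 12, was below 0.02 FPKM in every library.

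The lysosomal members of the family also rose. SLC38A9, which reports lysosomal arginine to mTORC1, was at 4.23, 3.37 and 1.82 FPKM against 6.27, 7.20 and 6.88 FPKM (difference 0.96, limma adjusted p = 0.00914). SLC38A7, which releases glutamine from lysosomes, was at 5.51, 5.73 and 9.70 FPKM against 13.0, 12.6 and 12.8 FPKM (difference 0.83, limma adjusted p = 0.00969). Neither passed a test against a 1.5-fold change (limma adjusted p = 0.175 and 0.285, with lowest values over all alternatives of 0.000563 and 5.66e-06).

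SLC38A3, or SNAT3, a glutamine carrier of liver and brain, fell from 3.35, 2.59 and 1.56 FPKM in the sensitive libraries to 0.00827, 0.115 and 0.0574 FPKM in the resistant ones (difference -1.69, limma adjusted p = 0.000222). SLC38A10, a member of less settled function, fell from 28.2, 29.3 and 30.0 FPKM to 15.3, 14.4 and 15.4 FPKM (difference -0.91, SE 0.0950, limma adjusted p = 0.000153). The values of SLC38A10 were close within each group. SLC38A6 was not tested and lay between 0.566 and 1.07 FPKM in all 6 libraries, with the groups overlapping.

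The sodium-independent facilitators of the SLC43 family moved apart. SLC43A1, or LAT3, which lets branched-chain amino acids pass down their gradient, fell from 22.3, 24.0 and 39.4 FPKM to 4.40, 5.18 and 5.32 FPKM (difference -2.27, SE 0.222, limma adjusted p = 0.000111). SLC43A2, or LAT4, with a similar range of substrates, rose from 1.59, 1.79 and 1.29 FPKM to 7.90, 7.29 and 6.45 FPKM (difference 1.69, SE 0.132, limma adjusted p = 3.80e-05). The share of SLC43A1 in the sum of the 2 fell from between 93.1% and 96.8% to between 35.8% and 45.2%, and SLC43A2 was the higher of the 2 in each resistant library. SLC43A3, which carries purine bases, was below 0.29 FPKM throughout.

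Of the proton-coupled carriers, 1 of 2 tested was called, or 50%, beside 67.7% of all tested genes. SLC36A1, or PAT1, an exporter of amino acids from lysosomes, was at 1.87, 1.89 and 1.75 FPKM in the sensitive and 1.84, 1.89 and 2.05 FPKM in the resistant libraries (difference 0.05, SE 0.0925, limma adjusted p = 0.683), and under quantile normalization its difference had the other sign, at -0.092. SLC36A4, or PAT4, fell from 5.06, 5.16 and 4.78 FPKM to 2.39, 2.05 and 2.85 FPKM (difference -0.81, limma adjusted p = 0.00115), and did not pass against a 1.5-fold change (limma adjusted p = 0.136, with a lowest value over all alternatives of 0.000237). SLC36A2 and SLC36A3 were at or near 0.

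Only 3 of the 16 SLC6 genes were tested, each with a different substrate. SLC6A9, or GLYT1, a glycine carrier, rose from 1.33, 1.98 and 3.82 FPKM in the sensitive libraries to 15.9, 15.0 and 15.4 FPKM in the resistant ones (difference 2.35, SE 0.259, limma adjusted p = 0.000203), the largest rise among the 22 genes. CCDC24 overlaps it in RefSeq and was at 3.95 ± 0.286 and 3.75 ± 0.435 FPKM. SLC6A8, the creatine carrier, rose from 16.2, 16.8 and 13.5 FPKM to 51.2, 50.05 and 55.3 FPKM (difference 1.69, SE 0.118, limma adjusted p = 2.08e-05). SLC6A6, the taurine carrier, fell from 10.5, 12.3 and 13.5 FPKM to 3.74, 3.53 and 3.37 FPKM (difference -1.52, SE 0.131, limma adjusted p = 6.05e-05). SLC6A8 stood at 1.55, 1.36 and 0.996 times the level of SLC6A6 in sensitive libraries 1, 2 and 3 and at 13.7 to 16.4 times in the resistant libraries.

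**Figure D3:**
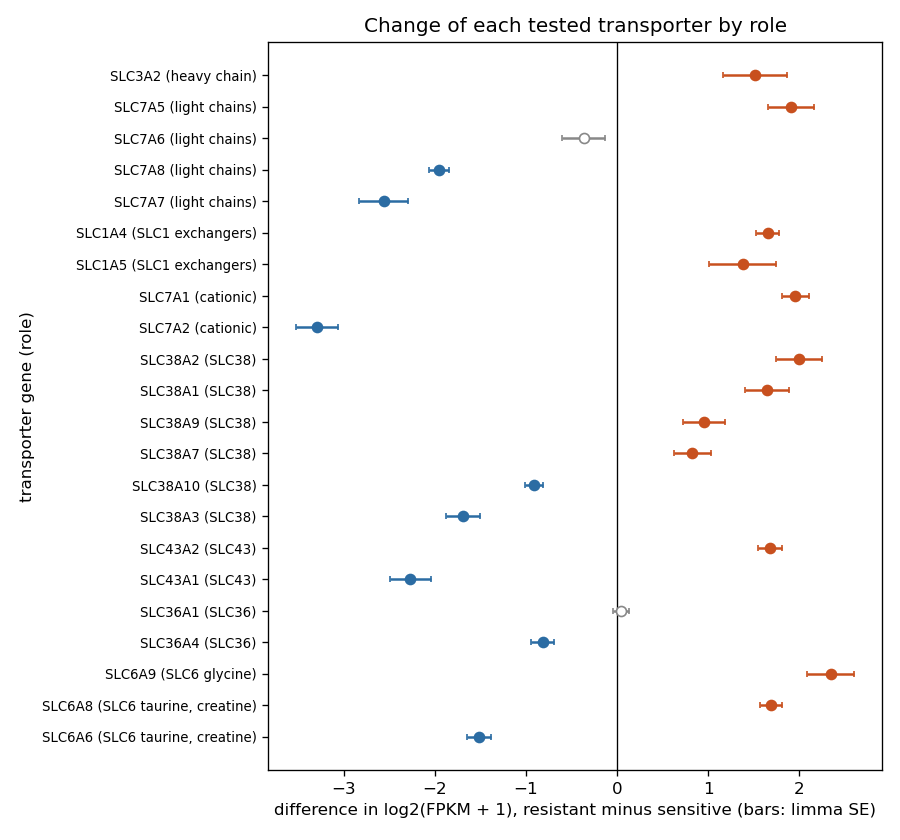
Difference in log2(FPKM + 1) between resistant and sensitive libraries for each of the 22 tested transporters, grouped by role, with limma standard errors as bars. Orange points were called higher (12 genes), blue points lower (8 genes), and the open points SLC7A6 and SLC36A1 were not called.

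Balances between related genes were also read inside each library, for pairs picked with their values known. The difference between SLC7A1 and SLC7A2 inside a library, on the log2(FPKM + 1) scale, was 0.06 to 1.43 in the sensitive and 5.78 to 5.98 in the resistant libraries, and there the filter had fixed the direction of SLC7A2. That between SLC43A2 and SLC43A1 was -4.14 to -3.17 against 0.24 to 0.72. The difference between SLC1A5 and SLC1A4 was 3.15 to 4.37 in the sensitive and 3.18 to 3.45 in the resistant libraries, with overlapping ranges.

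**Figure D4:**
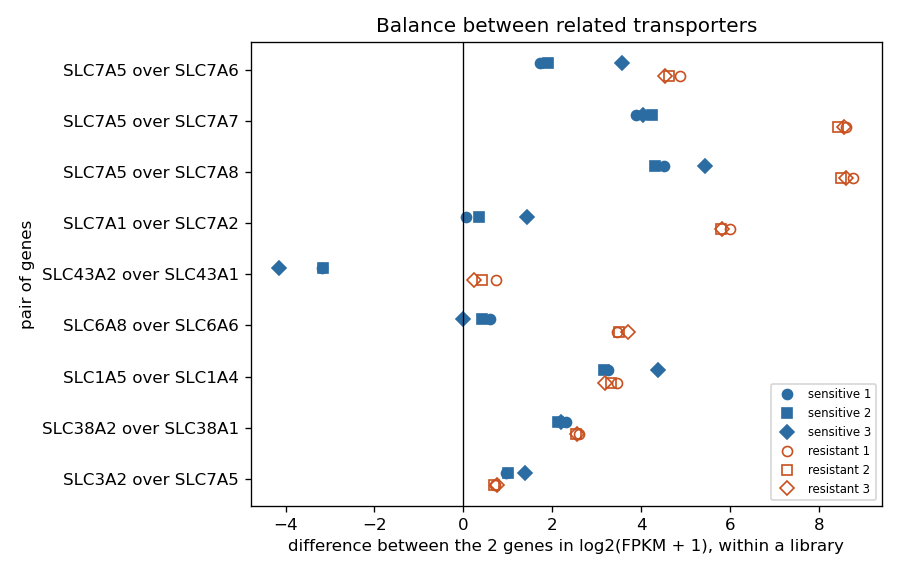
Difference between 2 related transporters within each library, in log2(FPKM + 1), with filled blue symbols for sensitive and open orange symbols for resistant libraries. SLC7A1 over SLC7A2 sits at 0.06 to 1.43 in sensitive and 5.78 to 5.98 in resistant libraries, while SLC1A5 over SLC1A4 overlaps between the groups.

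Promoter sequence was read for these genes because several of them moved together. RefSeq (GRCh38.p14) gave a window of 250 bases before a transcription start for 39 of the 51 genes and for 19 of the 22 tested. The amino acid response element core TGATGNAA, which ATF4 binds together with C/EBP proteins, was searched on both strands, and so was the palindrome CACGTG, the E-box read by MYC, TFEB and others. TGATGNAA was in 1 of 38 windows of tested transporters (2.63%), in 3.14% of all 35116 windows and in 1.59% of windows of tested genes. That window belongs to an inner start of SLC1A5, a gene that rose. CACGTG was in 6 of the 38 windows (15.8%) and in 6.34% of all windows, or 8.3% of windows of tested genes. Its 6 windows belong to SLC1A5 and SLC7A5, which rose, SLC7A7, SLC7A8 and SLC43A1, which fell, and SLC36A1, which was not called. A match is a description of these letters and not a site, and the numbers were not tested. Only the 250 bases before a start were searched, so a window without a match says nothing about sequence after the start or further upstream. The sequences below show the core before the inner start of SLC1A5 and the E-box before starts of SLC7A5 and SLC43A1, which moved in opposite directions, with the matched letters in capitals, written 5′ to 3′ on the gene's strand (minus in each case). They lie at chr19:46784893-46784922, chr16:87869508-87869757 and chr11:57515787-57515952, and the matches begin 97, 130 and 112 bases before the start. 
SLC1A5: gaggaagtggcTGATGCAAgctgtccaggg
SLC7A5: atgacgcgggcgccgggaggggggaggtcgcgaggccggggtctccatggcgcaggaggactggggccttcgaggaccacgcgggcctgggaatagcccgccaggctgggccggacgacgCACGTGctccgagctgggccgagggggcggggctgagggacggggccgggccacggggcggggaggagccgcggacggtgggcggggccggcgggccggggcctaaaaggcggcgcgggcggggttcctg
SLC43A1: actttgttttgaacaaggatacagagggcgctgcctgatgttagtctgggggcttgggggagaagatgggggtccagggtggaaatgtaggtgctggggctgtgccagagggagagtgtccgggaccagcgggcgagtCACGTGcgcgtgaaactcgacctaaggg

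The other 29 genes were below the filter. Of these, 5 (SLC1A7, SLC36A3, SLC6A7, SLC6A11 and SLC7A10) were listed at 0 in all 6 libraries, and 27 never reached 1 FPKM. The exceptions were SLC38A6 and the orphan carrier SLC6A16, which was at 1.32, 1.33 and 0.732 FPKM in the sensitive libraries but at 0.383, 0.374 and 0.448 FPKM across the resistant ones. SLC38A11 was at 0.888, 0.662 and 0.338 FPKM and SLC6A12, the betaine and GABA carrier, at 0.626, 0.715 and 0.138 FPKM in the sensitive libraries, and both were at most 0.0325 FPKM in each resistant library. SLC6A20, a carrier of proline, was listed at 0 in every sensitive library but at 0.155, 0.244 and 0.231 FPKM across the resistant ones. With no filter, 46 of the 51 genes could be fitted and 17 were called lower and 13 higher (limma, adjusted p under 0.05), where 44.6% of the 22521 genes in that fit were called, 22.9% higher and 21.7% lower.

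Sensitive library 3 differed from the other sensitive libraries in the direction of the resistant cells for some transporters and away from them for others. Among the 12 genes that rose, it lay above both other sensitive libraries for 7 and below both for 5. SLC1A5, SLC3A2, SLC6A9 and SLC7A5 stood at 2.64, 2.50, 2.30 and 1.91 times the mean of sensitive libraries 1 and 2. SLC38A1 and SLC38A2 both stood at 0.573 times that mean, and SLC38A9 at 0.478 times. Leaving the library out raised the difference of SLC3A2 to 1.95, of SLC1A5 to 1.85 and of SLC7A5 to 2.22, and lowered that of SLC38A2 to 1.74 and of SLC38A1 to 1.39. Without it 12 transporters were called higher and 9 lower, SLC7A6 being the added 1. In that fit 80.7% of all tested genes were called, beside 67.7% with all 6 libraries. The transporter counts were the same with resistant library 2 left out as well, where 76.1% of all tested genes were called.

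**Figure D5:**
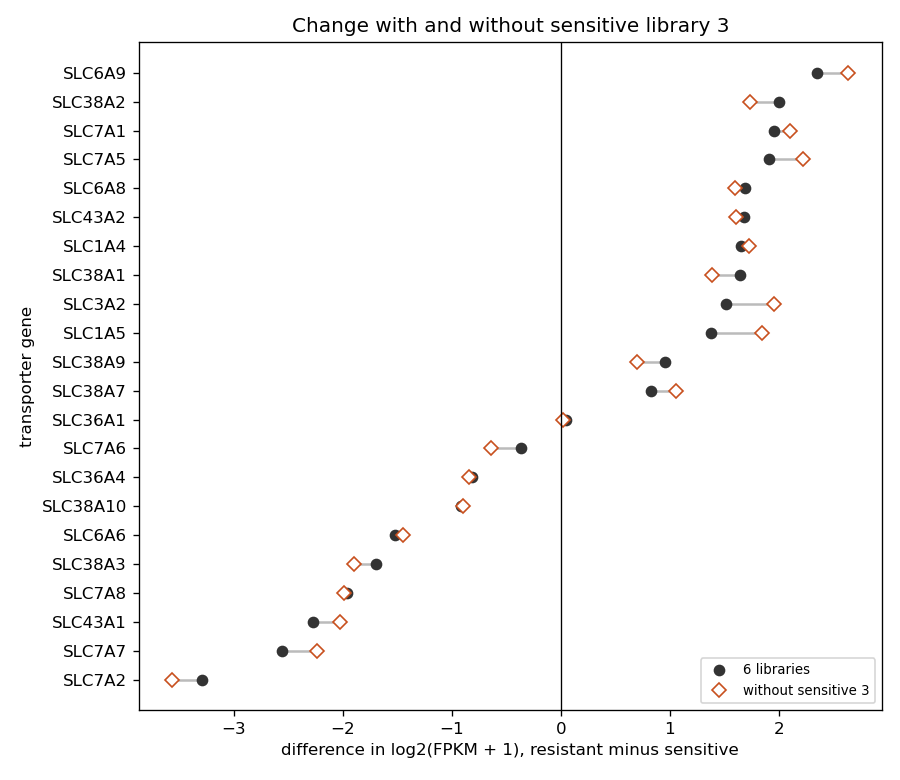
Difference in log2(FPKM + 1) between resistant and sensitive libraries for the 22 tested transporters, from all 6 libraries (filled circles) and without sensitive library 3 (open diamonds). SLC1A5 moves from 1.38 to 1.85 and SLC3A2 from 1.51 to 1.95, and no tested transporter changes sign.

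Some transcripts listed for the response to amino acid shortage moved with sensitive library 3 as well. This response runs from the kinase EIF2AK4 (GCN2) to the transcription factor ATF4 and its targets. DDIT3, a stress transcription factor, stood at 33.6, 37.1 and 167 FPKM in sensitive libraries 1, 2 and 3 but at 275, 258.5 and 214 FPKM across the resistant ones (difference 2.04, limma adjusted p = 0.0177). TRIB3, a pseudokinase induced by ATF4, stood at 9.80, 10.1 and 56.1 FPKM against 154, 143 and 128 FPKM (difference 2.91, limma adjusted p = 0.00515). Both were higher in sensitive library 3 than in the other sensitive libraries and higher still in each resistant library. CHAC1, another target, was high in sensitive library 3 alone, at 11.5, 13.0 and 71.45 FPKM against 12.0, 11.3 and 13.0 FPKM, and was not called (difference -0.83, limma adjusted p = 0.281). ATF4 was not called either, at 76.3 ± 18.7 and 87.4 ± 3.62 FPKM (difference 0.22, limma adjusted p = 0.295). Their part in the transporter values was not tested. Of 12 tested genes of 13 in this list, 6 rose, 3 fell and 3 were not called, which is 75% called beside 67.7% of all tested genes, with a median difference of 0.83 beside 0.08 over all tested genes. The largest changes were those of ATF3 (2.93), a transcription factor, TRIB3, DDIT3 and the bZIP factor CEBPB (1.34), and the asparagine synthetase ASNS, at 0.671 to 2.14 FPKM, was below the filter.

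Among the resistant libraries, library 2 held the most of each of the 4 tested transporters that had nearly disappeared. SLC7A2, SLC7A7, SLC7A8 and SLC38A3 were at 1.20%, 3.08%, 4.05% and 4.60% of their sensitive means in resistant library 2. In resistant libraries 1 and 3 the same genes were at 0% to 2.30% of those means. The hepatocyte markers, summed, moved in the same way, at 0.863% of the sensitive mean in resistant library 2 against 0.351% and 0.341% in the other resistant libraries. Whether the 2 facts are linked was not tested.

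Genes that sense amino acids upstream of mTORC1 were called about as often as all tested genes. Of 26 tested genes of 29 in the list, 9 rose, 8 fell and 9 were not called, which is 65.4% called beside 67.7% of all tested genes, with a median difference of 0.14. FLCN, folliculin, which acts on the Rag GTPases, rose from 3.13 ± 0.468 to 42.6 ± 1.60 FPKM (difference 3.41, limma adjusted p = 1.16e-06), and its partner FNIP1 by 2.27. CASTOR2, a paralog of the arginine sensor CASTOR1, fell from 14.0 ± 0.574 to 1.20 ± 0.161 FPKM (difference -2.77), while CASTOR1 rose by 1.15. The Rag GTPase RRAGC rose by 2.09, and RRAGA and RRAGB fell by 0.61 and 1.21. The leucine sensor SESN2 rose by 1.58 and stood at 15.8, 16.6 and 49.8 FPKM in sensitive libraries 1, 2 and 3. Among 5 tested genes of the mTORC1 core, the GTPase RHEB rose by 1.08 and the subunit MLST8 fell by 1.33. MTOR, RPTOR and AKT1S1 were not called, so 40% were called beside 67.7% of all tested genes. Without sensitive library 3, 4 of these 5 were called higher and 1 lower. That fit called 80.7% of the 11694 tested genes, 4738 higher and 4704 lower. Under quantile normalization 3 of the 5 were called higher and 1 lower, in a fit that called 70.1% of all tested genes, 4095 higher and 4098 lower.

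Amino acid carriers of other families were also called at a share near that of all tested genes. Of 13 tested genes of 19 in the files, 4 rose, 4 fell and 5 were not called, which is 61.5% called beside 67.7%, with a median difference of -0.02. SLC25A38, a mitochondrial glycine carrier, stood at 0, 0.0213 and 0.0147 FPKM in the sensitive libraries but at 15.5, 13.6 and 15.7 FPKM across the resistant ones (difference 3.97, limma adjusted p = 5.12e-07), and met the filter in the resistant libraries only. SLC15A1, a peptide carrier, fell from 13.7 ± 2.65 to 0.0896 ± 0.0710 FPKM (difference -3.74, limma adjusted p = 2.38e-06) and met it in the sensitive libraries only. SLC25A15, the mitochondrial ornithine carrier of the urea cycle, fell from 119 ± 15.3 to 9.59 ± 0.0928 FPKM (difference -3.49, limma adjusted p = 9.51e-07). SLC25A44, a mitochondrial carrier of branched-chain amino acids, fell by 1.43.

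Among genes that act on the carriers, the ubiquitin ligases NEDD4 and NEDD4L, which direct membrane carriers to degradation, rose by 1.47 and 1.78. LAPTM4B, which brings the SLC3A2 and SLC7A5 complex to lysosomes, was at 87.2 ± 2.56 and 83.6 ± 2.17 FPKM and was not called (difference -0.06, limma adjusted p = 0.561), nor was ARL6IP5. These 4 were the tested genes of 6 in the files, and 50% of them were called beside 67.7% of all tested genes.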

How the data were processed

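For each library the authors deposited a table of gene symbols and values, taken here to be FPKM from the values themselves, since no label names the unit. Per the submitters' processing notes, cutadapt and HISAT2 were used. Not given in the sources used here: tool versions, counting program, genome build, annotation and strand setting. Column sums differed between libraries. Among 11140 low genes, 89.7% showed values at whole multiples of a common step for that gene (tolerance 0.02, lowest value at most 20 steps). Zeros were left out, so a gene that was nonzero in only a single library met this by construction. The share alone therefore does not show such a step. No nonzero value was identical between 2 libraries. Groups and replicate numbers come from the sample titles.

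Genes reaching 1 FPKM in 3 or more libraries were fitted in limma 3.58.1 (limma-trend, R 4.3.3) on log2(FPKM + 1), a pseudocount of 1, with all 6 libraries and group as the only term, 4 residual and 2.75 prior degrees of freedom, after a test on simulated data. The threshold for a call was 0.05 after Benjamini-Hochberg adjustment across the whole fit. Differences on this scale understate changes of low genes. Errors are SD over 3 libraries or limma's SE. The transporters and all gene lists were chosen with earlier results of these data known. Every tested transporter is named, and of a related list up to 4 called genes by size of change, except genes not reported here. Transporters below the filter were named by their highest value. RRAGA, RRAGB, CASTOR1, SESN2, EIF2AK4, CHAC1, ATF4, ASNS and the CACGTG search were added after values were seen. All 51 symbols matched the RefSeq gene table. Printed promoter stretches stop before exons of GENCODE 29. The alternatives were other pseudocounts, filters, scalings and variance models, a replicate block, a test against a 1.5-fold change and each library left out. Python 3.11.15, pandas 2.3.3, numpy 2.4.6 and matplotlib 3.10.9 made tables and figures.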

Additional observations from a re-analysis of the deposited data

How the results depend on the processing

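Over 16 alternatives, 16 of the 22 tested transporters kept their direction and call in each alternative in which they could be fitted. The exceptions were SLC1A5, SLC38A7, SLC38A9 and SLC36A4, which lost the call against a 1.5-fold change (SLC1A5 also without resistant replicate 1), SLC7A6, which gained it without sensitive replicate 3, and SLC36A1, whose difference turned to -0.092 under quantile normalization. The cause was not tested. A filter on a mean of at least 5 FPKM left 7396 genes, with 4973 called in place of 7920, and 14 transporters, with 3 called lower. Against a 1.5-fold change 4357 genes were called. With no filter 46 transporters could be fitted and 17 were called lower. With 1 library left out, 6675 to 9442 genes were called, 11 to 12 transporters were higher and 8 to 9 lower. The highest counts came without sensitive replicate 3. With sensitive replicate 3 and resistant replicate 2 both left out, chosen after seeing the data, 8903 genes were called. With the replicate block, 7193 genes, 12 higher and 8 lower transporters were called. Deviations from the group mean in same-numbered libraries correlated at -0.422, 0.072 and -0.228, and no library correlated best with the library of its own number. Deviations cancel out within a group, so these correlations depend on each other and cannot exclude pairing. Near-0 FPKM values rest on few reads, whose number is unknown here.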

Other observations

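Of 15 tested genes of 20 for enzymes that use the transported amino acids, 5 rose, 7 fell and 3 were not called in limma, which is 80% called beside 67.7% of all tested genes. GLDC, the glycine-cleaving decarboxylase, fell by 4.33, from 24.0 ± 2.84 FPKM (sensitive) to 0.238 ± 0.0801 FPKM (resistant), on means ± SD of 3 libraries (limma adjusted p = 7.21e-07). ARG2, mitochondrial arginase, fell by 2.09 and the tyrosine aminotransferase TAT by 1.78. GLDC and TAT were below 1 FPKM in each resistant library and passed the filter by their sensitive libraries only, which fixed their direction. The branched-chain dehydrogenase subunit BCKDHA rose by 1.47 and BCKDHB fell by 0.65. Glutamine synthetase, GLUL, fell by 0.65. BCKDHA, BCKDHB and GLUL were chosen after their values were seen.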
